A study of Mus musculus with 26 samples.

Results

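The genes described here are 10 core components of insulin and insulin-like growth factor 1 (IGF1) signalling in the choroid plexus of the 4th ventricle of the mouse. They were taken by symbol, as known components of the pathway: the receptors Insr and Igf1r, the receptor substrates Irs1 and Irs2, the regulatory and catalytic subunits of class I phosphoinositide 3-kinase Pik3r1 and Pik3ca, the kinases Akt1 and Akt2, and the transcription factors Foxo1 and Foxo3. Each symbol matched 1 Ensembl gene among the 55416 genes of the table, and all 10 passed the minimum level that left 13697 genes for testing.

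Insulin is released after a meal, and IGF1 is made mainly by the liver under growth hormone. Binding of either hormone activates receptor tyrosine kinases, which phosphorylate IRS proteins, and these recruit phosphoinositide 3-kinase, whose lipid product activates AKT. AKT then phosphorylates FOXO factors and holds them outside the nucleus, so that much of the signal passes through phosphorylation, which messenger RNA levels do not record. Because mice eat mainly at night, this pathway is one of the routes by which feeding time is known to set clocks outside the brain's central pacemaker.

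The Ctrl group was 12 sham-operated C57Bl6J mice, and the SCNx group was 12 mice of that strain with an electrolytic lesion of the suprachiasmatic nucleus (SCN), the central pacemaker. All were adult males with free access to food, and in each group 1 mouse was taken every 4 h over 2 days of constant darkness, from circadian time (CT) 0 to CT44, so each time in a group rests on 1 animal, and libraries go by group and time. CT0 to CT8 and CT24 to CT32 are subjective day, and CT12 to CT20 and CT36 to CT44 are subjective night. Lesioned mice that still showed a locomotor rhythm in constant darkness were excluded. After that screen both groups spent 1 week under a cycle of 12 h light and 12 h darkness, and constant darkness then began at CT0. In SCNx, subjective day and night name the time of collection. Whether timing from that cycle carried over in these mice was not tested. With 1 mouse per time, a lost rhythm and mice at different phases cannot be told apart in SCNx. The KO group was 2 adult FoxJ1-ERT2-Cre+/-; Bmal1fl/fl males fed tamoxifen, 1 taken at ZT7 and 1 at ZT18 under a cycle of 12 h light and 12 h darkness. Foxj1 drives the recombinase in cells with motile cilia, so cells of the vessels and stroma keep Bmal1 (Arntl in the table) by design. The KO mice were older than the others, their tissue was captured by laser from frozen sections rather than picked fresh, and their libraries were made with another kit. No Cre-negative, vehicle-fed or wild-type library of that kind was analysed here. Food intake, blood glucose and insulin were not among the measurements used.

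The Ctrl libraries held 38751201 to 47335258 estimated counts, the SCNx libraries 41807043 to 49527655, and the KO libraries 17425207 and 18059227. Values are given as CPM, the counts of a gene relative to the total of its library, scaled for library composition in Ctrl and SCNx and by library total in KO. Sums over marker genes were scaled by library total in all groups. Genes of the choroid plexus epithelium, such as Ttr and Folr1, made up 141756 to 170169 CPM in Ctrl, 114623 to 163347 in SCNx and 82821 to 87295 in KO. Some libraries carried RNA of other tissues. Hepatocyte genes, 12 in all, summed to 2261 CPM in the Ctrl library of CT16 and to 11694 CPM in the SCNx library of CT0, where the group medians were 2.07 and 4.69. The sum of 13 neuronal and cerebellar genes was 356 CPM in Ctrl CT4, 477 in SCNx CT32, and 287 and 434 in the KO libraries, against medians of 18.4 in Ctrl and 17.5 in SCNx. In bulk tissue, fewer cells of a type and less RNA per cell cannot be told apart.

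Promoters were searched for letters that the clock or the pathway itself could use, and those of Irs1, Irs2, Akt1 and Foxo1 are shown because the first 3 held a match and Foxo1 lay closest to a rhythm call. The sequences are the 250 bases before the annotated start in RefSeq on GRCm38.p6, another build than the one used for counting, read 5′ to 3′ on the gene's strand, with matches in capitals. The E-box CACGTG is the element bound by CLOCK and BMAL1, and GTAAACA is a core motif of FOXO factors, found here as its reverse complement.

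Irs1 (chr1:82291440-82291689, minus strand): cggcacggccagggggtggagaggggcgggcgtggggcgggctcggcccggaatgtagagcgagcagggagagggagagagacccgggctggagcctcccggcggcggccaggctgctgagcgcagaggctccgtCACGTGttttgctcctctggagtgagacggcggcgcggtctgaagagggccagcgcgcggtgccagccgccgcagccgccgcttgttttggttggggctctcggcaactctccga

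Irs2 (chr8:11008930-11009179, minus strand): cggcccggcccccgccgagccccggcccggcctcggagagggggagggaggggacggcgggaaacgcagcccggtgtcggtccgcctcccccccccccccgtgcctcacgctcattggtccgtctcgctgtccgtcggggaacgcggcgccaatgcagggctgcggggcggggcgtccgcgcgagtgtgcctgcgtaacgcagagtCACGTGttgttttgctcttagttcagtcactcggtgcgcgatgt

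Akt1 (chr12:112674885-112675134, minus strand, the upstream of 2 annotated starts): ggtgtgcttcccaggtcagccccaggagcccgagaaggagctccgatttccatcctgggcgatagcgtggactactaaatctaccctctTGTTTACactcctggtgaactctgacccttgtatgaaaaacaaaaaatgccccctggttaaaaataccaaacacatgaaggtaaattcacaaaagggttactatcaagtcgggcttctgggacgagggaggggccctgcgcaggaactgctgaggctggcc

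Foxo1 (chr3:52268087-52268336, plus strand): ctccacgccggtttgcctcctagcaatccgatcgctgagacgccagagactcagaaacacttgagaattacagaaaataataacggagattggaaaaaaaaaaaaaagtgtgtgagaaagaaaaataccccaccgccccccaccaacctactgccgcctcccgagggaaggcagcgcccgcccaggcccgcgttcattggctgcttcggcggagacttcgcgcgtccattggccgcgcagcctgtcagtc

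The E-box began 115 bases before the start of Irs1 and 44 bases before that of Irs2, the substrate genes, and the FOXO motif began 161 bases before that start of Akt1. Both strands were searched for CACGTG, for the D-box of PAR bZIP factors as TTATGTAA or TTACGTAA, and for the FOXO motif as GTAAACA or ATAAACA, and no matches overlapped. RefSeq windows were matched for 9 of the 10 genes, with 14 windows in all, since Pik3r1, Akt1 and Akt2 have several annotated starts. Insr had no window. Across all 32851 windows of this length, 6.02% held an E-box, 0.931% a D-box and 7.1% a FOXO motif. Among the 14 windows 2 held an E-box, 0 a D-box and 1 a FOXO motif. A match is a run of letters and was not tested for binding.

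Divided by the length of the annotated exons, levels in Ctrl were highest for the AKT kinases and lowest for Irs1 and Foxo1. Akt1 stood at 27.8 ± 1.22 CPM per kb (SD, n = 12) and Akt2 at 25.5 ± 1.76, and their ranges overlapped. Pik3r1, which encodes the regulatory p85 alpha subunit, followed at 18.5 ± 1.08, apart from both Akt2 above it and Igf1r below it. Igf1r at 14.1 ± 1.06 overlapped with Irs2 at 11.7 ± 1.30, and Irs2 was apart from Foxo3 at 8.24 ± 0.364. From Foxo3 downward each gene overlapped with the next, through Pik3ca at 7.55 ± 0.325, Insr at 7.33 ± 0.881 and Irs1 at 6.62 ± 0.589 to Foxo1 at 6.36 ± 0.335. Per length, the IGF1 receptor was therefore above the insulin receptor in Ctrl, with no overlap among the 12 libraries of each. The order of the 10 genes was the same in SCNx, where Akt2 and Pik3r1 overlapped because of SCNx CT32. Exon lengths came from GENCODE vM21, an earlier annotation than the one used for counting.

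Levels in SCNx and Ctrl were compared over all 12 mice of each group with edgeR's quasi-likelihood test, which asks whether loss of the pacemaker moved a gene irrespective of time. None of the 10 genes passed the Benjamini-Hochberg threshold of 0.05, and neither did any of the 13697 genes tested (0%). At an unadjusted p under 0.05 there was 1 of the 10 genes, against 9.37% of all genes, and DESeq2 and limma-trend also called 0 of the 10. The size of the differences was bounded closely: no 95% interval of the 10 genes reached below −0.14 or above 0.23 on the log2 scale.

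Among the receptors, Insr ranged from 80.9 to 123 CPM in Ctrl (median 99.9) and from 85.9 to 131 in SCNx (median 108), a log2 fold change of 0.09 with an interval from −0.06 to 0.23. Igf1r ranged from 205 to 262 CPM in Ctrl (median 236) and from 213 to 267 in SCNx (median 251), a log2 fold change of 0.04 (−0.06 to 0.14). The ranges of the groups overlapped over most of their length for both receptors.

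Of the substrates, which dock the kinase to the receptors, Irs1 lay between 49.9 and 70.7 CPM in Ctrl (median 60.8) and between 51.1 and 67.0 in SCNx (median 58.3). Irs2, the substrate best known for its control by fasting in liver, lay between 56.8 and 84.6 CPM in Ctrl (median 72.1) and between 63.002 and 84.8 in SCNx (median 77.1). The log2 fold changes were −0.04 (−0.14 to 0.07) for Irs1 and 0.05 (−0.07 to 0.17) for Irs2, and again the groups overlapped. The lowest Ctrl library of both substrates was CT4.

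Among the kinase subunits, Pik3r1 gave 162 to 201 CPM in Ctrl (median 187) and 166 to 208 in SCNx (median 187), a log2 fold change of 0.0005 (−0.08 to 0.09). Pik3ca, the catalytic p110 alpha subunit, gave 64.4 to 74.1 CPM in Ctrl (median 68.0) and 62.2 to 82.4 in SCNx (median 73.1). Its log2 fold change of 0.09 (0.008 to 0.18) had the smallest p of the 10 genes, 0.0335, but the adjusted p was 0.495 in edgeR's quasi-likelihood test, and the lowest SCNx library, SCNx CT0, lay below every Ctrl library. SCNx CT0 was also the library with most hepatocyte RNA, whose part in its Pik3ca value was not tested.

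Akt1, the widely expressed isoform, ranged from 105 to 123 CPM in Ctrl (median 114) and from 105 to 119 in SCNx (median 112), a log2 fold change of −0.03 (−0.08 to 0.03). Akt2, the isoform most tied to glucose uptake, ranged from 161 to 201 CPM in Ctrl (median 186) and from 136 to 193 in SCNx (median 181), a log2 fold change of −0.03 (−0.12 to 0.07). The value of 136 belonged to SCNx CT32, and the other 11 SCNx libraries held at least 172 CPM.

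The FOXO factors, which AKT keeps out of the nucleus, also overlapped between the groups. Foxo1 ranged from 50.01 to 59.8 CPM in Ctrl (median 55.0) and from 49.1 to 58.7 in SCNx (median 56.3), a log2 fold change of 0.02 (−0.04 to 0.08). Foxo3 ranged from 58.3 to 67.9 CPM in Ctrl (median 62.3) and from 56.5 to 69.2 in SCNx (median 62.6), a log2 fold change of −0.001 (−0.07 to 0.06).

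**Figure D1:**
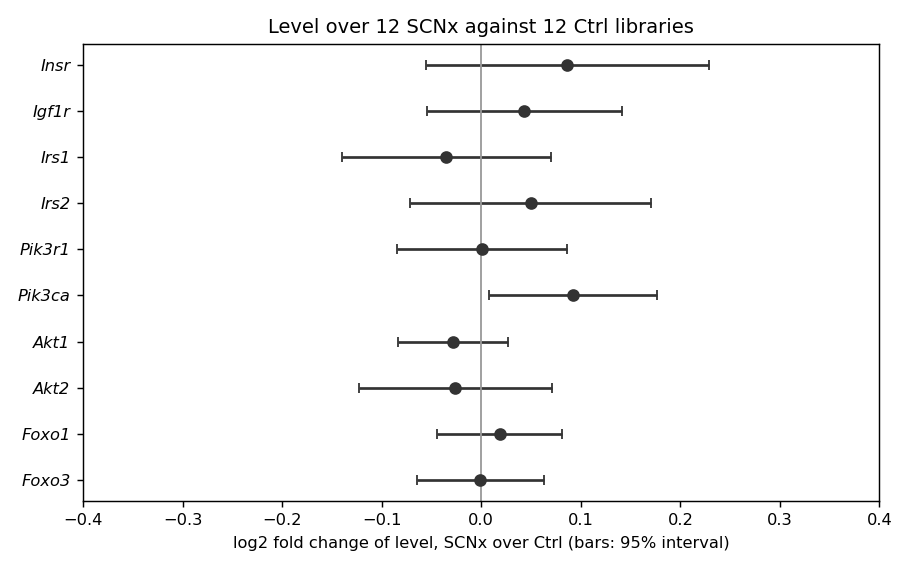
Log2 fold change of the level over 12 SCNx against 12 Ctrl libraries (x axis) for each of the 10 genes (y axis); points are the edgeR estimates and bars their 95% intervals. Every interval lies between −0.14 and 0.23, and that of Pik3ca alone leaves out 0 (adjusted p = 0.495, edgeR's quasi-likelihood test).

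Within a group the 10 genes varied little between libraries, each of which is another mouse at another time. The coefficient of variation over 12 libraries ran from 4.31% for Pik3ca to 12.0% for Insr in Ctrl, and from 4.45% for Akt1 to 12.3% for Insr in SCNx. The median over all tested genes was 9.86% in Ctrl and 11.1% in SCNx, and 8 and 9 of the 10 genes lay below it. By mean level the 10 genes ranked between 457 and 3347 of the 13697 tested genes, whose means reached down to 1 CPM. They were not compared with genes of like level, so unusually low variation for that level is not shown. Insr was above the median in both groups and Irs2, at 11.1%, in Ctrl. The highest library of a gene exceeded its lowest by at most 1.53 times within a group, for Insr in SCNx.

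**Figure D2:**
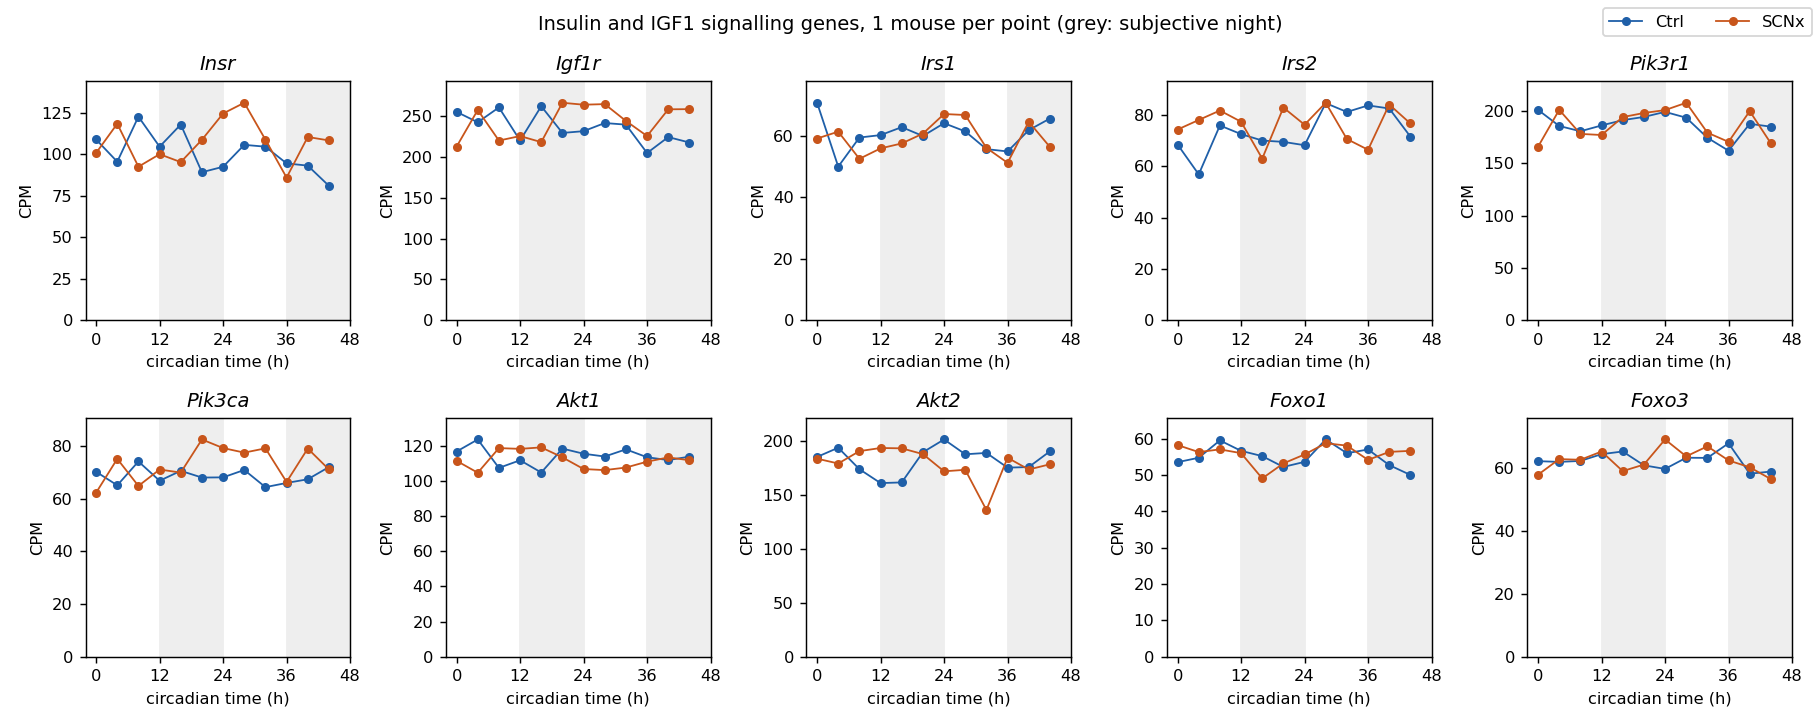
CPM (y axis, from 0) against circadian time in h (x axis) for the 10 genes, with 1 mouse per point, Ctrl in blue and SCNx in orange, and subjective night in grey. The lines of the groups cross repeatedly in every panel, and the lowest point of Akt2 is SCNx CT32 at 136 CPM.

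A 24 h rhythm was tested by fitting a cosine and a sine to each group. The clock genes show what such a rhythm looks like in these libraries. Arntl swung between 2.0 and 39.4 CPM in Ctrl, with a log2 amplitude (peak above the mean) of 2.23 ± 0.195 (SE), and Nr1d1, a repressor of Arntl, had an amplitude of 2.45 ± 0.194. In SCNx the amplitudes were 0.48 ± 0.173 and 0.29 ± 0.168, and the difference of the rhythm was called for Arntl (adjusted p = 0.000384), Nr1d1 (0.000229), Per2 (0.000285) and Dbp (0.000686) in edgeR's quasi-likelihood test.

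For the insulin and IGF1 signalling genes the amplitudes in Ctrl lay between 0.02 for Pik3ca and 0.12 for Insr, and 0 of 10 passed the threshold in Ctrl, where 10.7% of all tested genes did. The median amplitude of the 10 genes was 0.09 in Ctrl, beside 0.11 over all tested genes, and 0.06 in SCNx, beside 0.09. At an unadjusted p under 0.05 edgeR gave 1 of the 10 genes (24.8% of all genes), DESeq2 called 1 and limma-trend 0. In SCNx 0 of the 10 genes passed, as did 0 of all genes (0%). There, 1 had an unadjusted p under 0.05, against 14.8% of all genes, and DESeq2 and limma-trend called 0. That gene was Insr, with an amplitude of 0.17 ± 0.0598, a fitted peak at CT1.17 and an adjusted p of 0.309 in edgeR's quasi-likelihood test.

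**Figure D3:**
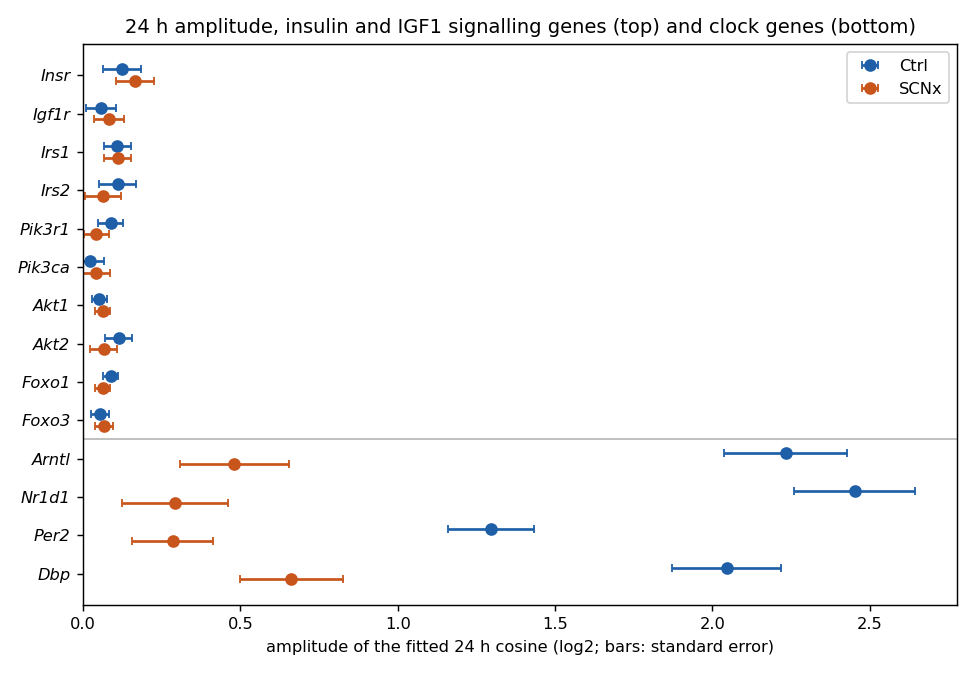
Log2 amplitude of the fitted 24 h cosine (x axis) for the 10 genes (top) and 4 clock genes (bottom), Ctrl in blue and SCNx in orange, with bars for the standard error of the fit. The amplitudes of the 10 genes stay at or below 0.17 in both groups, while those of the clock genes in Ctrl reach 2.45.

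Foxo1, which drives fasting genes when insulin is low, came closest to a call. In Ctrl it was highest at CT28 (59.8 CPM) and CT8 (59.5 CPM) and lowest at CT44 (50.01 CPM) and CT20 (52.2 CPM), so that the extremes of the first day recurred within 4 h on the second. The fitted curve peaked at CT7.99 with an amplitude of 0.09 ± 0.0238, a peak 1.13 times the trough, and an adjusted p of 0.0526 (p = 0.00579, edgeR's quasi-likelihood test). The call changed with small changes of the fit: the adjusted p was 0.0493 with DESeq2's size factors, 0.0182 in DESeq2 itself, 0.0463 without the libraries with most hepatocyte RNA (Ctrl CT16 and SCNx CT0), and 0.0450 without those with most neuronal RNA (Ctrl CT4 and SCNx CT32). It was 0.0608 at a minimum of 5 CPM, 0.0691 with a linear trend over time, 0.0702 in limma-trend and 0.560 without a minimum level, so 4 of 8 alternatives called it. Leaving out 1 library at a time gave 0.0266 to 0.187 and called it in 4 of 24 fits, those without Ctrl CT32 (0.0458), SCNx CT16 (0.0266), SCNx CT32 (0.0483) or SCNx CT40 (0.0448). In SCNx the amplitude was 0.06 ± 0.0238, and the difference between the groups had an adjusted p of 0.449. The level of Foxo1 moved with 4 endothelial markers (Pecam1, Cdh5, Kdr and Plvap), whose sum ran from 93.2 to 205 CPM in Ctrl and from 93.7 to 234 in SCNx and was also highest at CT28 in each. Across the log2 values of the 24 libraries Pearson's r between them was 0.69 (0.76 within the 12 Ctrl libraries), given as a description. None of the 4 markers was itself called for a rhythm in Ctrl, with adjusted p from 0.227 for Cdh5 to 0.549 for Pecam1 in edgeR's quasi-likelihood test. Their sum was not tested for a rhythm, and a missed threshold does not show that the markers were constant. The part of vessel RNA in the Foxo1 values was not tested.

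Akt2 depended on a single library. With all mice its rhythm in Ctrl had an amplitude of 0.11 ± 0.0430, a peak at CT1.09 and an adjusted p of 0.208 in edgeR's quasi-likelihood test, and the difference from SCNx an adjusted p of 0.355. Without SCNx CT32, which held 136 CPM of Akt2, the adjusted p was 0.0162 for the rhythm in Ctrl and 0.0486 for the difference. That library does not enter the Ctrl curve, but it enters the estimate of spread that the groups share. Its omission was not particular to Akt2, since Foxo1 was then called as well. Without Ctrl CT4 and SCNx CT32 together, the rhythm calls in Ctrl over all genes went from 1459 to 2223. Among the 24 Ctrl and SCNx libraries, SCNx CT32 also had the most neuronal RNA (477 CPM) and the least epithelial marker RNA (114623 CPM), and their part in its Akt2 value was not tested.

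The difference of the 24 h rhythm between SCNx and Ctrl, tested directly, was called for 0 of the 10 genes and for 2.12% of all genes. DESeq2 and limma-trend called 0 as well. At an unadjusted p under 0.05 there were 2 of the 10, Akt1 (p = 0.0114, adjusted 0.176, edgeR's quasi-likelihood test) and Insr (p = 0.0361, adjusted 0.295), against 15.1% of all genes. For Insr the fitted peaks were CT8.51 in Ctrl and CT1.17 in SCNx, and for Akt1 they were CT2.02 and CT14.6. None of these rhythms was itself called. In edgeR's quasi-likelihood test the adjusted p in Ctrl and SCNx was 0.370 and 0.309 for Insr and 0.344 and 0.346 for Akt1.

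Night was also compared with day, since feeding falls mainly in the night in mice with an intact SCN and the KO mice allow no other contrast. In Ctrl 0 of the 10 genes passed, beside 0.825% of all genes, and 0 had an unadjusted p under 0.05 (11.4% of all genes). In SCNx 0 passed, beside 0% of all genes, and again 0 had an unadjusted p under 0.05 (13.2% of all genes). For the receptors in Ctrl the log2 differences were −0.12 for Insr and −0.11 for Igf1r. That of Insr was −0.07 without Ctrl CT8 and −0.18 without Ctrl CT16. DESeq2 and limma-trend called 0 of the 10 genes in each.

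For the AKT kinases the mean was lower at night in Ctrl and higher at night in SCNx, within the spread between libraries. Akt2 ranged from 174 to 201 CPM in the day and from 161 to 190 CPM in the night of Ctrl, and from 136 to 190 CPM in the day and 173 to 193 CPM in the night of SCNx. Akt1 ranged from 107 to 123 CPM in the day and from 105 to 118 CPM in the night of Ctrl, and from 105 to 119 CPM in the day and 111 to 119 CPM in the night of SCNx. Day and night overlapped in each group for both kinases. The night-to-day log2 difference was 0.20 ± 0.0884 greater in SCNx than in Ctrl for Akt2 (p = 0.0300, adjusted 0.380, edgeR's quasi-likelihood test) and 0.11 ± 0.0509 greater for Akt1 (p = 0.0384, adjusted 0.408). These were 2 of 10 genes with an unadjusted p under 0.05, against 11.2% of all genes, while 0 of the 10 and 0.84% of all genes passed the adjusted threshold and DESeq2 and limma-trend called 0 of the 10.

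The second day in darkness was compared with the first within each group, and 0 of the 10 genes passed, as did 0% of all genes in both groups. In Ctrl the smallest p values belonged to Irs2, 0.19 higher on the log2 scale on the second day (95% interval 0.04 to 0.34, adjusted p = 0.850, edgeR's quasi-likelihood test), and Insr, −0.16 (−0.32 to −0.004, adjusted p = 0.850). In SCNx it was Akt2, −0.15 (−0.26 to −0.04, adjusted p = 0.163), and its second day includes SCNx CT32. These were 2 and 1 genes with an unadjusted p under 0.05, against 4.28% and 18.6% of all genes, and DESeq2 and limma-trend called 0 of the 10 in either group.

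The rest of the pathway was described from a list of 77 further genes, of which 65 passed the minimum level. The 12 that did not include Ins1, the liver-made binding proteins Igfbp1 and Igfals, the receptors Insrr, Glp1r, Gcgr, Gipr and Ghsr, and Sh2b2, Foxo6, Trim63 and G6pc. Levels were called different between SCNx and Ctrl by edgeR for 0 of 65 genes, with 7 (10.8%) at an unadjusted p under 0.05, against 9.37% of all genes, and 0 by DESeq2 and limma-trend. A 24 h rhythm in Ctrl was called for 7 of 65 (10.8%), close to the 10.7% of all genes. They were 1 of 9 ligands and binding proteins, 1 of 9 adaptors, 2 of 11 kinase subunits and AKT regulators, 2 of 17 genes of mTOR and AMPK signalling, 1 of 17 FOXO factors and fasting targets, and 0 of 2 other receptors.

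Igfbp3, a carrier that holds IGFs in the extracellular space, had the largest amplitude. It ranged from 8.78 CPM at CT24 to 43.4 CPM at CT8 in Ctrl (median 16.9) and from 17.1 to 45.9 CPM in SCNx (median 27.6). The Ctrl curve peaked at CT9.24 with an amplitude of 0.80 ± 0.194 (adjusted p = 0.0267, edgeR's quasi-likelihood test). In that test the call was kept in 19 of 24 fits without 1 library (adjusted p up to 0.108) and lost with a linear trend over time. The 2 days differed, with 18.6 CPM at CT4 and 43.4 at CT8, but 35.4 at CT28 and 15.3 at CT32. Igfbp3 followed the sum of the endothelial markers, with r = 0.95 over the 12 Ctrl libraries and 0.73 over the 12 SCNx libraries, as a description. The part of vessel RNA in its rhythm was not tested.

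Deptor, an inhibitor bound to mTOR, had the smallest adjusted p of the 7. It ran from 129 CPM at CT36 to 180 CPM at CT28 in Ctrl (median 148) and from 134 to 180 CPM in SCNx (median 159). In Ctrl it peaked at CT4.25 with an amplitude of 0.20 ± 0.0387 (adjusted p = 0.00500, edgeR's quasi-likelihood test), a call kept in all 24 fits that left out 1 library. Deptor was also the single pathway gene called between night and day in Ctrl, lower at night with a log2 difference of −0.31 ± 0.0593 (adjusted p = 0.0119, 1.54% of the list beside 0.825% of all genes), and the 6 night libraries (129 to 140 CPM) did not overlap with the 6 day libraries (156 to 180 CPM). The difference of this contrast between SCNx and Ctrl had an adjusted p of 0.109. Night against day in SCNx was called for 0 of the 65 genes and for 0% of all genes. At an unadjusted p under 0.05 there were 7 of the 65, against 13.2% of all genes, and DESeq2 and limma-trend called 0 of the 65.

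Pik3cb, the catalytic p110 beta subunit, peaked in late night. It ranged from 38.6 CPM at CT36 to 53.2 CPM at CT0 in Ctrl, with a peak at CT21.9 and an amplitude of 0.19 ± 0.0441 (adjusted p = 0.0191, edgeR's quasi-likelihood test), and was called in all 24 fits without 1 library. Its partner in the list of 10, Pik3ca, had the smallest amplitude of the 10 genes (0.02 ± 0.0436). Slc2a4, the insulin-responsive glucose transporter GLUT4, was low, between 2.67 CPM at CT44 and 6.42 CPM at CT12 in Ctrl, with an amplitude of 0.48 ± 0.104 and a peak at CT9.93 (adjusted p = 0.0134).

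Prkaa1 and Shc1 kept their calls in fewer of the fits without 1 library. Prkaa1, the alpha 1 subunit of the energy sensor AMPK, had an amplitude of 0.14 ± 0.0346 and a peak at CT10.5 (adjusted p = 0.0298, edgeR's quasi-likelihood test). Shc1, an adaptor that links receptors to RAS, had 0.16 ± 0.0432 and a peak at CT11.9 (adjusted p = 0.0427). Leaving out 1 library kept the call in 18 of 24 fits for Prkaa1 and in 11 for Shc1. The number of pathway genes called was 3 instead of 7 without Ctrl CT8, 2 without Ctrl CT12, 3 without Ctrl CT24, 4 without Ctrl CT36 and 3 without Ctrl CT44, and was 11 without SCNx CT32.

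In SCNx 0 of the 65 genes was called for a rhythm, beside 0% of all genes, with 7 at an unadjusted p under 0.05 (14.8% of all genes) and 0 by DESeq2 and limma-trend. The difference of the rhythm was called for 0 of 65, beside 2.12% of all genes, with 9 at an unadjusted p under 0.05 (15.1% of all genes). Of the 7 genes rhythmic in Ctrl, Deptor came nearest to a difference, with an adjusted p of 0.0881 in edgeR's quasi-likelihood test. For the difference DESeq2 called 3 of the 65 (589 of all genes) and limma-trend 0 (223 of all genes). The 3 were Deptor, Slc2a4 and Klf15, a regulator of fasting metabolism, and Slc2a4 was also called by edgeR with a linear trend over time and Deptor in 1 of the 24 fits without 1 library. For the rhythm in Ctrl DESeq2 called 12 (2053 of all genes) and limma-trend 6 (1375 of all genes). In edgeR's test on all 24 libraries, a call in Ctrl with none in SCNx was thus not shown to be a difference for these 7 genes.

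**Figure D4:**
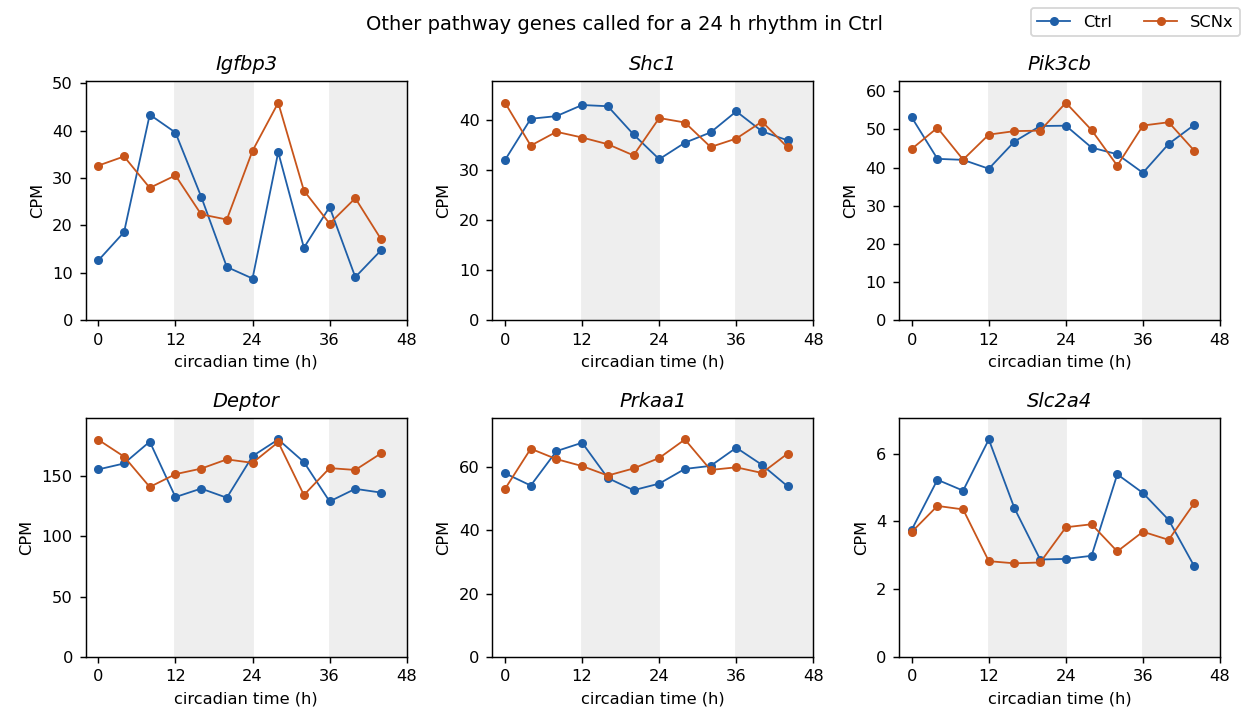
CPM (y axis, from 0) against circadian time in h (x axis) for 6 of the further pathway genes called for a 24 h rhythm in Ctrl, with 1 mouse per point, Ctrl in blue, SCNx in orange and subjective night in grey. Ctrl Igfbp3 runs from 8.78 to 43.4 CPM, while the other panels span narrower ranges.

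In the KO libraries the targeted gene Arntl stood at 10.6 CPM at ZT7 and 9.36 CPM at ZT18, between the highest and lowest Ctrl values, and counts over the whole gene do not show which exons were lost. With 1 mouse per time, the night-to-day differences have no replicate check. Between night and day 0 of the 10 genes differed by more than 2-fold, as did 4.78% of the 15050 genes measured in these libraries. Akt1 was at 57.0 CPM at ZT7 (95% Clopper-Pearson interval 53.5 to 60.6) and 84.2 at ZT18 (80.0 to 88.5), a log2 difference of 0.56. Irs2 was at 66.7 CPM (62.9 to 70.6) and 94.0 (89.6 to 98.6), a difference of 0.50. Foxo3 with 71.4 and 94.4 CPM and Igf1r with 221 and 289 CPM differed by 0.40 and 0.39, and the other 6 genes by −0.05 (Pik3ca) to 0.19 (Akt2). The intervals cover counting error only, not differences between mice.

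By library total 9 of the 10 values were higher at night, beside a median log2 difference of 0.13 over all 15050 genes. Scaling for composition with TMM moved all differences by −0.13. The median of the 10 genes went from 0.18 to 0.05, and that of all 15050 genes from 0.13 to 0.004. The same 9 genes stayed above 0, Irs1 at 0.01. The share of all genes that were higher at night was not counted.

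Some of the 10 genes were at other levels in KO than in any Ctrl library. Akt1 (57.0 and 84.2 CPM), Akt2 (76.3 and 86.9 CPM) and Foxo1 (42.2 and 47.5 CPM, the latter with a counting interval up to 50.7) were below the lowest Ctrl values of 105, 161 and 50.01 CPM. Irs1 (81.6 and 89.5 CPM) and Foxo3 (71.4 and 94.4 CPM) were above the highest Ctrl values of 70.7 and 67.9 CPM. At ZT18 alone, Igf1r (289 CPM), Irs2 (94.0 CPM) and Pik3r1 (221 CPM) were above the highest Ctrl values of 262, 84.6 and 201 CPM. Pik3ca (70.3 and 67.8 CPM) and Insr (103 and 115 CPM) lay within the Ctrl range. How many of all genes lay outside their Ctrl range was not counted, so the 10 genes are not shown to be unusual in this. Genotype, age, lighting, dissection and kit all differed between KO and Ctrl, and so did the epithelial and neuronal marker sums given above, so their parts in these levels cannot be told apart and no test was made. The scaling differed too. Ctrl values were scaled for composition over the tested genes (factors 0.955 to 1.05) and KO values by the total of all genes. Small margins, such as that of Foxo1 at ZT18, were not compared on a common scale.

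**Figure D5:**
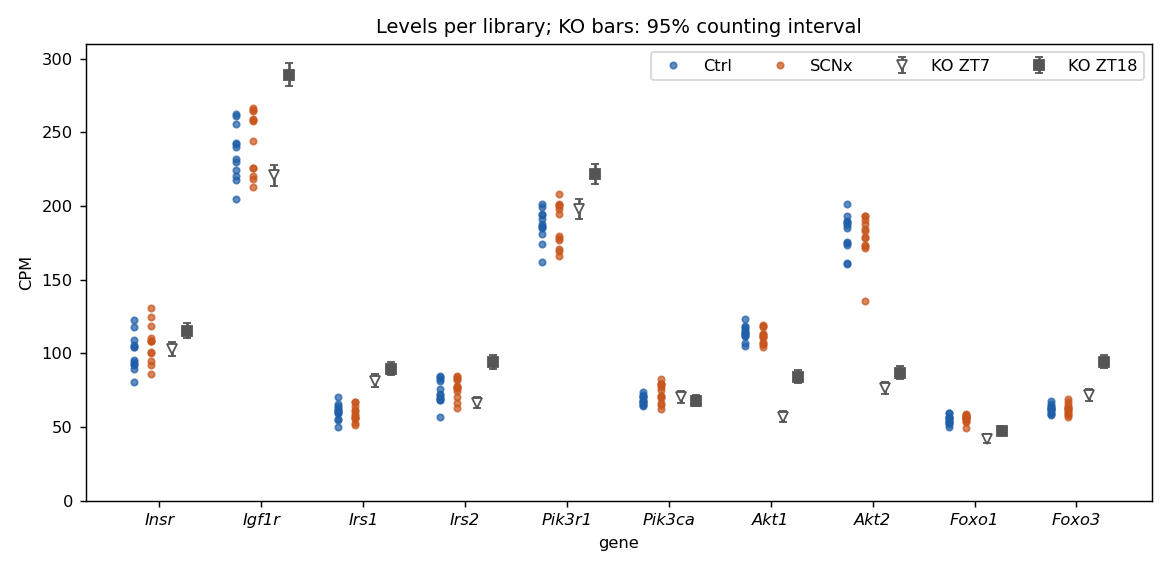
CPM (y axis, from 0) of the 10 genes (x axis) in every library, with Ctrl in blue, SCNx in orange, and KO at ZT7 (open triangle) and ZT18 (filled square) with 95% counting intervals. Both KO values of Akt1, Akt2 and Foxo1 lie below all Ctrl points, and both of Irs1 and Foxo3 above.

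Across the 24 Ctrl and SCNx libraries, which share depth and composition effects, the 45 pairs among the 10 genes had a Pearson's r of log2 CPM between −0.64 (Insr with Akt1) and 0.79. The 4 highest values were 0.79 for Insr with Igf1r (0.75 within Ctrl and 0.81 within SCNx), 0.71 for Igf1r with Pik3ca (0.44 and 0.86), 0.69 for Irs1 with Pik3r1 (0.62 and 0.78), and 0.65 for Akt1 with Akt2 (0.75 and 0.58). Like Foxo1, Insr ran with the endothelial markers (r = 0.65), whereas Akt1 and Akt2 ran against them (r = −0.49 and −0.53). Akt2 ran with the epithelial markers (r = 0.59). The tested genes whose pattern was most like that of Foxo1 over the 24 libraries were Srrm1 (r = 0.86), Dhtkd1 (0.84), Itga7 (0.82), Arid5a (0.81) and Rapgef4os3 (0.81). These coefficients are descriptions over 24 libraries and carry no test.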

How the data were processed

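RNA of 12 Ctrl, 12 SCNx and 2 KO choroid plexuses was sequenced as single-end reads. The authors mapped them to GRCm39 (Ensembl 104) with nf-core/rnaseq and deposited gene-level estimated counts from Salmon without normalization. Per the labels, their tools were cutadapt 3.4, STAR, SAMtools 1.16.1, Salmon 1.9.0 and StringTie 2.2.1. The expected counts were rounded. A gene was tested if its mean reached 1 CPM in both Ctrl and SCNx.

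TMM factors and quasi-likelihood F tests of edgeR 4.0.16 (R 4.3.3) were applied to the 24 libraries, with a mean per group, with a 24 h cosine and sine per group, with a mean per group and phase, and with a term for the second day. P-values were adjusted by Benjamini-Hochberg over all 13697 genes at a threshold of 0.05. Standard errors of amplitudes came from the F statistic of that fit. KO values were described on log2 CPM with a prior count of 1. Depth was at least 38751201 counts in these libraries. Each library is another mouse, so the spread behind the p-values includes differences between mice. With 1 mouse per time, it also includes differences between times that a fit leaves out. In KO, genes were counted from a mean of 1 CPM.

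Alternatives were DESeq2 1.42.0, its size factors, limma-trend (limma 3.58.1), no minimum or a mean CPM of 5, a rank test against 24 h templates with 100000 random orders, a trend over time, a block, and omission of libraries. The fits were also run on simulated data with planted level changes and Ctrl rhythms larger than those of the 10 genes. That run does not bear on effects of their size. The 10 genes and the pathway and marker lists were chosen with earlier results of these data known; pathway genes were named when called in any test, at most 15 per test, with the 5 genes most correlated with Foxo1. The values of 1 called pathway gene are not reported here. Circadian time does not pair mice: equal times in Ctrl and SCNx are different animals.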

Additional observations from a re-analysis of the deposited data

Results flagged for a closer look

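The day and night libraries of Ctrl and SCNx were each examined as groups of 6 for a library far from the rest (Dixon's criterion at 95%), which gave 3 flags in 40 groups. Chance alone flags about 1 in 20. Pik3r1 was at 162 CPM in Ctrl CT36, while the other Ctrl night libraries held 185 to 194 CPM. Akt2 was at 136 CPM in SCNx CT32, while the other SCNx day libraries held 172 to 190 CPM, and this library had the highest neuronal marker sum (477 CPM), whose part was not tested. Foxo3 was at 59.8 CPM in Ctrl CT24, while the other Ctrl day libraries held 62.03 to 63.3 CPM.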

How the results depend on the processing

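For the 10 genes the number called stayed at 0 under all alternatives tried for levels, for the rhythm in SCNx at adjusted p under 0.05, for night against day in either group and its difference between groups, and for the second against the first day. The rhythm in Ctrl was the exception: 1 gene (Foxo1) with DESeq2's size factors, 1 with DESeq2, 1 without Ctrl CT16 and SCNx CT0, 2 (with Akt2) without Ctrl CT4 and SCNx CT32, 0 to 2 leaving out 1 library, and 7 by the rank test at the looser Q under 0.4. At Q under 0.05 the rank test called 0 of the 10 genes. The difference of the rhythm gave 0 to 1 leaving out 1 library. Of the pathway genes, 7 were rhythmic in Ctrl, against 3 without a minimum level, 12 with DESeq2, 12 without Ctrl CT4 and SCNx CT32, 4 by the rank test at Q under 0.05, 44 at Q under 0.4, and 2 to 11 leaving out 1 library. Pathway counts that moved from 0 were the rhythm in SCNx (9 without a minimum level, where 7 of them were genes otherwise untested), the difference of the rhythm (3 without a minimum, 3 with DESeq2, 2 without Ctrl CT16 and SCNx CT0, 1 without Ctrl CT4 and SCNx CT32, 1 with a linear trend, 0 to 2 leaving out 1 library), the difference of night against day (1 with DESeq2, 1 without Ctrl CT4 and SCNx CT32, 0 to 1 leaving out 1 library), and the second day in SCNx (1 with DESeq2). Night against day in Ctrl went from 1 to 0 without a minimum. Over all genes, DESeq2 called 7 for the level (edgeR 0), 432 for the rhythm in SCNx (edgeR 0, but 1384 without a minimum) and 335 for the second day in SCNx (edgeR 0). The rhythm in Ctrl gave 1459 genes, 2223 without Ctrl CT4 and SCNx CT32, and 924 and 6918 by the rank test at Q under 0.05 and 0.4. Its difference gave 291 genes, 654 without a minimum, 589 with DESeq2 and 504 without Ctrl CT4 and SCNx CT32. Night against day in Ctrl gave 113 genes, 37 without a minimum and 263 with DESeq2, and its difference 115, against 73 at CPM 5, 29 with limma-trend and 24 without Ctrl CT16 and SCNx CT0. The cause of these changes was not tested.

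Signs turned only for log2 differences that were not called. For levels, Pik3r1 gave −0.0004439 with DESeq2's size factors, −0.01145 without a minimum, −0.0008296 at CPM 5, −0.0004634 with DESeq2 and −0.001465 with limma-trend. Without Ctrl CT4 and SCNx CT32 the level of Akt2 gave 0.01003, night against day in Ctrl −0.0313 for Irs1 and −0.01239 for Irs2, its difference between groups −0.002375 for Pik3r1, and the second day in Ctrl −0.06138 for Irs1. Without Ctrl CT16 and SCNx CT0 the level of Foxo3 gave 0.0144, night against day −0.00108 for Foxo3 in Ctrl and −0.0358 for Pik3ca in SCNx, its difference 0.0006443 for Insr, −0.01986 for Pik3r1 and −0.01976 for Pik3ca, and the second day −0.008384 for Akt1 in Ctrl, −0.0188 for Irs2 and −0.03114 for Pik3r1 in SCNx. Night against day in SCNx gave 0.002292 for Igf1r without a minimum and −0.00129 for Pik3ca at CPM 5, and its difference −0.006908 for Pik3r1 at CPM 5. The second day gave −0.002785 for Irs1 in Ctrl with DESeq2's size factors, −0.002793 at CPM 5 and −0.002783 with DESeq2, and −0.01094 for Irs2 in SCNx without a minimum.

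Leaving out 1 library at a time also turned signs of uncalled values, given here from the lowest to the highest. For the level the values ran from −0.0432 to 0.00114 for Akt2, −0.01534 to 0.01112 for Foxo3 and −0.01914 to 0.01474 for Pik3r1. The amplitude of the difference of the rhythm, which has no sign, ran from 0.003886 to 0.07195 for Pik3ca, and its fitted peak moved by more than 6 h in 4 of the 24 fits. For night against day in Ctrl the values ran from −0.009898 to 0.03348 for Foxo3, −0.03155 to 0.07032 for Irs1, −0.01277 to 0.09682 for Irs2, −0.02561 to 0.01528 for Pik3ca and −0.05824 to 0.001931 for Pik3r1. For night against day in SCNx the values ran from −0.04688 to 0.01802 for Igf1r and −0.03564 to 0.03411 for Pik3ca. For its difference between the groups the values ran from −0.04293 to 0.005203 for Foxo1, −0.0881 to 0.03042 for Insr, −0.02897 to 0.04068 for Pik3ca and −0.03445 to 0.03398 for Pik3r1. For the second day in Ctrl the values ran from −0.01049 to 0.02237 for Akt1, −0.03382 to 0.001004 for Foxo1, −0.06007 to 0.03926 for Irs1 and −0.04998 to 0.009272 for Pik3ca. For the second day in SCNx the values ran from −0.04699 to 0.03793 for Irs2 and −0.03107 to 0.05429 for Pik3r1.

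Circadian time was the label Ctrl and SCNx shared, and it does not pair animals. With it as a replicate block the level test called 0 of the 10 genes, with Pik3ca at 0.08831 (adjusted p = 0.744) and Pik3r1 at −0.001364. Precision is limited by 1 mouse per time.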
